A study of Mus musculus with 19 samples.

Results

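Cst7 encodes cystatin F, an inhibitor of lysosomal cathepsins that microglia make in quantity around amyloid plaques. Hippocampal libraries of an Alzheimer's disease mouse model were compared by how much Cst7 RNA they held: 8 libraries high for their group against 8 libraries low for their group, out of 19 in all. Within each of 4 groups the libraries were chosen by their Cst7 level in CPM, the usual scaling of a gene's count by the total count of its library. The 2 highest were taken as high and the 2 lowest as low, and the middle library of each group of 5 was left out, which removed 3 libraries. The ranking is a readout of these same libraries and not a treatment. A p-value for another gene therefore describes how that gene went with Cst7 among these mice, and Cst7 itself was given no test.

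All mice were 4 months old and hemizygous for 5xFAD, a transgene set in which the neuronal Thy1 promoter drives its human genes, mutant APP among them, and amyloid plaques form early. The 10 mice labelled 5xFAD carried no other listed allele (5 females, 5 males). The other 9 mice, 5xFAD/CLU-2kb-KI in the study's text, were also homozygous for an allele written CLUh2kbKI (4 females, 5 males), and are called knock-in here. RNA came from part of the pulverised left hippocampus of PBS-perfused mice, and each library is 1 mouse by its title. No mouse without 5xFAD was analysed here, plaques were not counted in these files, and the labels give no litter, date or sequencing batch. The labels name NovaSeq and HiSeq instruments without saying which library ran on which.

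Microglia that meet plaques are known to pass through Trem2, a lipid-sensing receptor that signals through the adaptor Tyrobp, and then to switch on a set of genes for phagocytosis, lipid handling and lysosomal digestion. Cst7 is known as a member of that set. Another programme known in amyloid models is the type I interferon response, in which signalling from the interferon receptor turns on Ifit and Oas genes and antigen presentation. In bulk tissue, more cells of a type and more RNA per cell cannot be told apart.

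The Cst7 levels that fixed the arms are given as a description. In 5xFAD females the low libraries held 25.0 and 26.5 CPM, the middle one 31.1 and the high ones 33.8 and 37.9. In 5xFAD males they were 18.3 and 20.5 in the low libraries, 20.7 in the middle and 22.2 and 30.4 in the high ones. In knock-in females the low libraries held 23.02 and 34.8 CPM and the high ones 50.5 and 53.1, with no middle library. These knock-in females had the widest split, with a high mean 1.79 times the low mean. In knock-in males the values were 29.3 and 40.4 in the low libraries, 48.0 in the middle and 49.0 and 55.9 in the high ones. The high-to-low ratio was 1.5 there, 1.39 in 5xFAD females and 1.36 in 5xFAD males. The arms are relative to the group: both low knock-in male libraries held more than the 22.2 CPM of 1 high 5xFAD male library. The closest neighbours across an edge of the split were 20.5 (low) and 20.7 CPM (middle) in 5xFAD males and 48.0 (middle) and 49.0 CPM (high) in knock-in males.

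**Figure D1:**
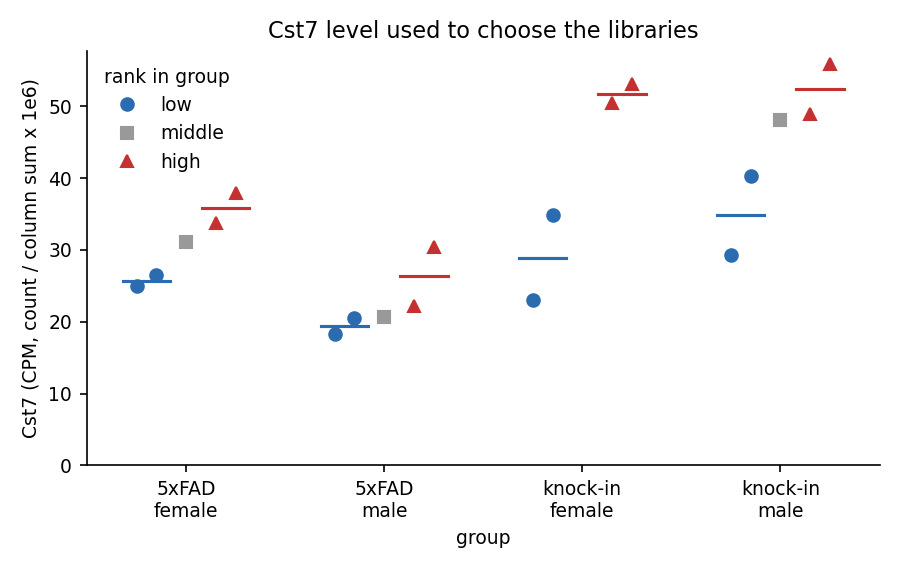
Cst7 level in each of the 19 libraries (vertical axis, CPM) by group, with low (circles), middle (squares) and high (triangles) libraries and bars at the mean of each pair. The high pair lies above the low pair in every group because the ranking made it so, and the middle library lies at 20.7 CPM in 5xFAD males but at 48.0 in knock-in males.

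Total counts ran from 18232975 to 21331418 in the low arm (median 19457208) and from 18888517 to 25200966 in the high arm (median 19451090). Hippocampal markers were present in all 19 libraries, with 57.3 to 139 CPM of the dentate gene Prox1 and 88.0 to 230 CPM of the CA1 gene Wfs1. The microglial receptor Csf1r was at 131 to 247 CPM. Of the markers of blood-derived cells, 3 of 12 for monocytes and neutrophils and 3 of 13 for lymphocytes passed the low-count filter. Pooled over groups, the summed levels of each list overlapped between arms (1.86 to 4.74 CPM high and 2.14 to 4.62 low for the first list). Choroid plexus markers summed to 707 to 11902 CPM in high and 79.9 to 4813 CPM in low libraries.

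2 genes rose with Cst7 beyond the spread between libraries, Ifit3 and Lgals3bp, out of 18002 tested (0.0111%). No gene passed in the other direction by edgeR's quasi-likelihood test, which adjusted p over all tested genes by the Benjamini-Hochberg method and took 0.05 as the threshold. At an unadjusted p under 0.05, 797 genes were higher (4.43%) and 664 lower (3.69%). With 1 library left out the higher count ran from 461 (2.52%, without knock-in male 7) to 1107, and the lower count from 431 (when knock-in male 7 or knock-in female 4 was dropped) to 1129 (without 5xFAD male 10). limma-voom called the same 2 genes higher and 0 lower. DESeq2 called 9 higher (among them Ifit3, Lgals3bp, Ifit1, Ifit3b, Ccl12, Psme1, Ctsd and Syngr2) and 5 lower (Pitpnm3, Gpr26, Nwd2, Trhde and Gm48754), of which Syngr2 and Gm48754 are named after their values were seen. Of all genes tested, 51.1% had a difference above 0. These shares over all genes (4.43% higher, 3.69% lower, 51.1% above 0) are the background for every list count of the edgeR high-low fit below. Levels from here on are CPM with trimmed-mean (TMM) scaling, and differences are log2 of high over low with group as a block.

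Ifit3 belongs to the family of interferon-induced tetratricopeptide proteins that block foreign RNA. Its levels in 5xFAD females were 11.9 and 18.6 CPM in low against 21.4 and 32.8 in high libraries, and in 5xFAD males 9.07 and 11.8 against 14.3 and 18.4. In knock-in females they were 15.2 and 18.7 against 27.8 and 31.2, and in knock-in males 12.2 and 15.0 against 22.6 and 22.96. In all 4 groups both high libraries lay above both low ones, and the middle library lay between the arm means in 3 of 3 groups. The mean was 23.9 ± 6.32 CPM in high and 14.1 ± 3.44 in low libraries (SD, n = 8 each), a log2 difference of 0.76 (SE 0.11, edgeR adjusted p = 0.0311), or 1.69-fold. The Ifit3b gene beside it is a close copy, so reads may be split between them, and Salmon, which the submitters' processing notes name, shares such reads out by estimate.

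Lgals3bp encodes a secreted glycoprotein that binds galectin-3 and is induced by interferons. It was at 46.1 and 53.9 CPM in low against 73.0 and 82.9 in high 5xFAD females, and at 25.9 and 32.8 against 42.8 and 52.8 in 5xFAD males. In knock-in females it was at 60.5 and 70.7 against 94.1 and 95.4, and in knock-in males at 35.7 and 48.5 against 52.1 and 73.1. Again no high library overlapped a low one of its own group. The middle library lay between the arm means in 1 of 3 groups, and in 5xFAD males (50.3 CPM) and knock-in males (66.2) it lay above the mean of the high pair. The means were 70.8 ± 19.9 and 46.8 ± 15.0 CPM (SD, n = 8 each), a log2 difference of 0.61 (SE 0.09, edgeR adjusted p = 0.0311), or 1.53-fold. Both genes had a positive difference in all 32 alternative high-low fits that changed the data or the model, and each passed the threshold in 6 of them. With 1 library left out, Lgals3bp passed in 2 of 16 fits (without knock-in male 7 or 10; adjusted p 0.0257 to 0.275) and Ifit3 in 1 of 16 (without 5xFAD female 4; 0.0473 to 0.135). In the remaining fits with 1 library left out the gene missed the threshold.

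**Figure D2:**
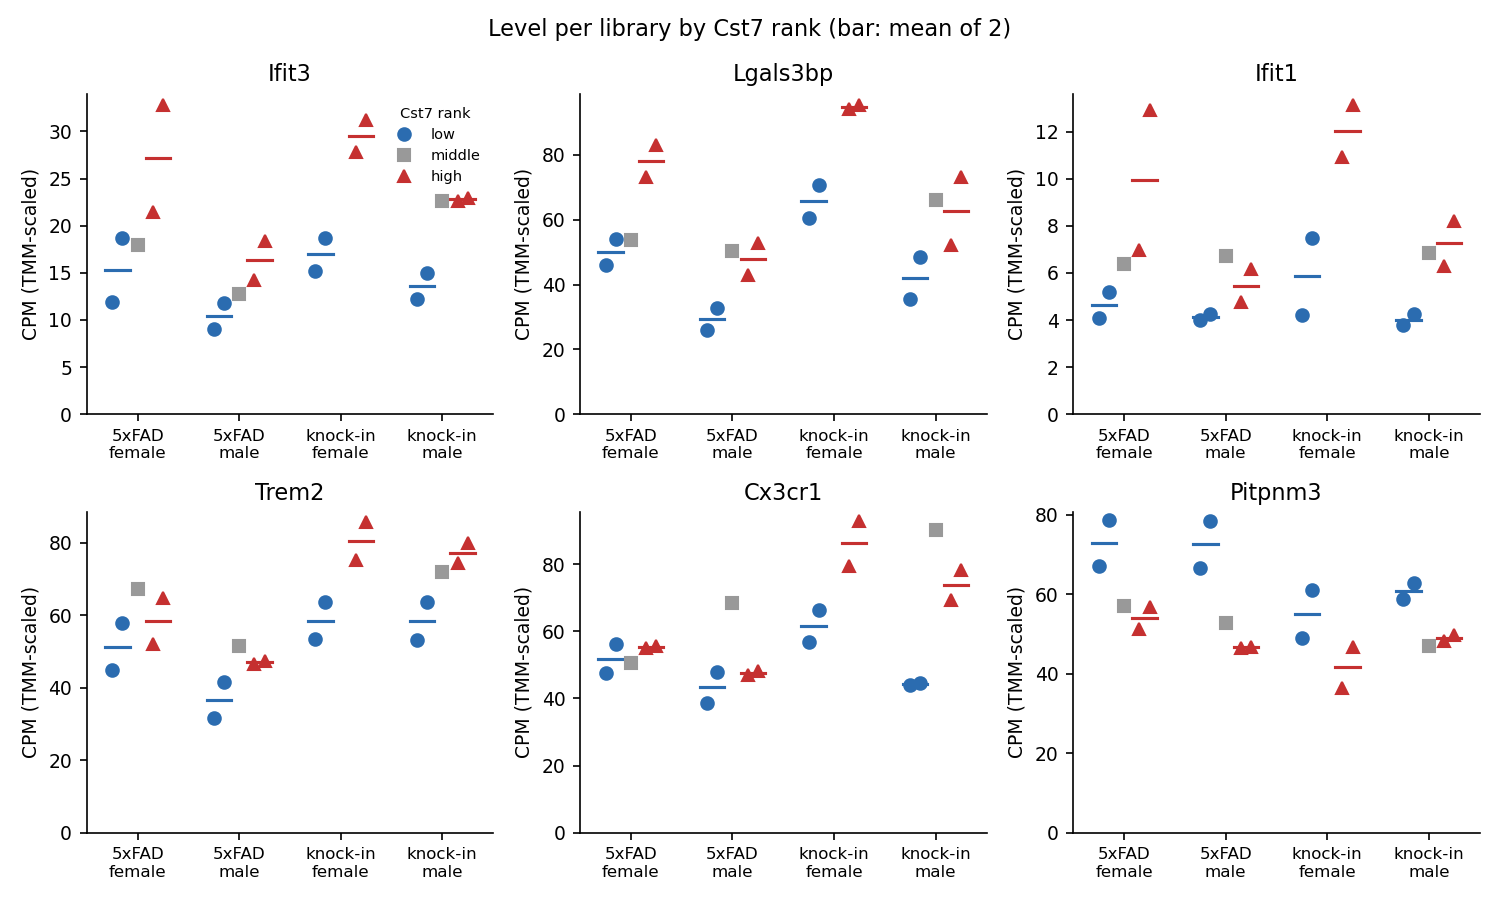
Level (vertical axis, TMM-scaled CPM) of 6 genes in every library by group, with low, middle and high Cst7 libraries as circles, squares and triangles and bars at the mean of each pair. Ifit3 and Lgals3bp separate the pairs in every group, Ifit1 does so too, Trem2 in 3 of 4 and Cx3cr1 in 2 of 4, and Pitpnm3 lies lower in the high pair of every group.

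The windows just upstream of these genes are shown for the 2 called genes and for Ifit1, the next interferon gene by p. They are the 250 bases before the gene start, from RefSeq on build GRCm38.p6, written 5′ to 3′ on the gene's strand. Capitals mark matches to 4 motifs searched on both strands: GAAA, any 2 bases and GAAA (the interferon-stimulated response element, ISRE), TGANTCA (AP-1), GAGGAAGT (PU.1) and CACGTG (an E-box). Ifit3 (chr19:34583279-34583528, plus strand) holds 2 ISRE matches, starting 156 and 122 bases before the gene start, and an AP-1 match at 56; Ifit1 (chr19:34640639-34640888, plus strand) holds 2 ISRE matches at 104 and 85. Lgals3bp (chr11:118401960-118402209, minus strand) holds none of the 4 motifs.
Ifit3: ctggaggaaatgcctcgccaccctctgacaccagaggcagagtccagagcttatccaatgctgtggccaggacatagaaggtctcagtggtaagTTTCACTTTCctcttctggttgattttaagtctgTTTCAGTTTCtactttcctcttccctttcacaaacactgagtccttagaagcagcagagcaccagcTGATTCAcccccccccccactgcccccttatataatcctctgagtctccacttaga
Ifit1: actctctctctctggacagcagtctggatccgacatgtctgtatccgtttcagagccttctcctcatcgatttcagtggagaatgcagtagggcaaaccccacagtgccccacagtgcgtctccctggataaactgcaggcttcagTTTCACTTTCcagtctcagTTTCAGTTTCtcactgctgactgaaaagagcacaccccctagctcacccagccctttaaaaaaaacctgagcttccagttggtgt
Lgals3bp: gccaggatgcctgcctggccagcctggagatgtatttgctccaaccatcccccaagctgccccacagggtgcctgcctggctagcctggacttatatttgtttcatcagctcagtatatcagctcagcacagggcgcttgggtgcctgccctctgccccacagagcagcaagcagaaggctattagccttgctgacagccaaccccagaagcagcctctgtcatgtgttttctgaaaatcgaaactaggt
Among 27025 genes with a window of 300 bases (250 before and 50 after the start), 3.99% held the ISRE, against 10 of the 16 interferon-list genes with a window (62.5%). These are letter matches in this window and say nothing of whether a factor sat there.

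Type I interferon genes formed the only list of 34 with a member past the adjusted threshold in edgeR. The list held 25 genes, all tested: 25 had a difference above 0, 18 were higher at an unadjusted p under 0.05 (72%, against 4.43% of all genes), and 1 passed the adjusted threshold, Ifit3. With 1 library left out, 15 to 20 members were higher at an unadjusted p under 0.05. The median log2 difference was 0.47, against 0.00 over all genes tested, and 0.42 to 0.61 with 1 library left out. It was 0.22 when replicate number and genotype replaced group as the block, 0.70 in females alone and 0.35 in males alone. With the replicate block, only replicates 2, 4, 7 and 10 set a high library against a low one. Both high libraries lay above both low ones in all 4 groups for 6 of the 25, among them Ifit3, Ifit1, Usp18, Ifit2 and Ifi44. Over all tested genes 37 did so (0.206%). Ifit2 and Ifi44 are named here after their values were seen.

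Ifit1, another Ifit family member, was at 3.77, 4.23 and 7.49 CPM (lowest, median and highest) in low and 4.75, 7.58 and 13.1 in high libraries, a log2 difference of 0.86 (SE 0.17, adjusted p = 0.315). Its arms overlapped across groups but not within any. Oasl2, an oligoadenylate synthetase-like protein, had a log2 difference of 0.81 and Usp18, which dampens interferon signalling, 0.83, both with adjusted p = 0.603. Irf7 (0.88), Isg15 (0.72) and Bst2 (0.68) were of like size, and the 25 members ranged from 0.01 to 1.28.

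MHC class I and class II genes had differences above 0 throughout. For class I presentation, 15 of 15 genes tested had a difference above 0, 10 at an unadjusted p under 0.05 (66.7%) and none at the adjusted threshold, and the median was 0.36. The 10 fell to 5 without 5xFAD female 2 and to 6 without knock-in female 2 or 5. Psme1, a subunit of the proteasome activator, was at 26.4 to 34.5 CPM in low and 32.8 to 45.9 in high libraries, with a log2 difference of 0.32 (SE 0.07, adjusted p = 0.462), and both high libraries were above both low ones in 4 of 4 groups. Tapbp, which loads peptide onto class I molecules, also separated the pairs in 4 of 4 groups with a log2 difference of 0.36 (SE 0.08, adjusted p = 0.603). The middle library lay between the arm means in 1 of 3 groups for Psme1 and in 0 of 3 for Tapbp. B2m, the light chain, had a difference of 0.39. Class I heavy-chain genes are near-identical in sequence, so H2-Q4 (0.47), H2-D1 (0.44) and H2-K1 (0.38) are uncertain.

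For class II, 10 of 10 genes tested had a difference above 0, 4 at an unadjusted p under 0.05 (40%) and none at the adjusted threshold, with a median of 0.48. The 4 fell to 1 without 5xFAD female 2 and to 2 without 5xFAD female 3 or knock-in female 1. Cd74, the invariant chain, had a log2 difference of 0.99 (SE 0.40, adjusted p = 0.604). Some high libraries stood far above the rest: high libraries ran from 9.16 to 102 CPM with a median of 14.9, and low libraries from 6.62 to 22.0 with a median of 12.8. The 3 highest values among high libraries were 102 and 34.4 CPM in knock-in females and 66.5 in a 5xFAD female.

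Chemokine and cytokine genes had a median of 0.25 over 15 tested, with 13 above 0, 4 at an unadjusted p under 0.05 (26.7%) and none at the adjusted threshold. In 2 of them both high libraries exceeded both low ones in 4 of 4 groups. Ccl12, a monocyte attractant, was at 0.53 ± 0.30 CPM in low and 1.39 ± 0.70 in high libraries (SD, n = 8 each), a log2 difference of 1.46 (SE 0.32, adjusted p = 0.462). Cxcl16, a membrane-bound chemokine and scavenger receptor, had a difference of 0.51 (adjusted p = 0.603). The middle library lay between the arm means in 0 of 3 groups for Ccl12 and in 1 of 3 for Cxcl16. For Ccl12 it lay below both low libraries in 5xFAD females (0.27 CPM). It lay above both high ones in 5xFAD males (1.11) and in knock-in males (3.23). Cxcl10, a chemokine induced by interferon, stood at 0.90, with its pairs separated upward in 2 groups and downward in 1.

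The plaque-associated core, to which Cst7 belongs, had a difference above 0 in every tested member, and none passed the threshold. Of its 24 genes besides Cst7, 23 were tested, 1 having failed the low-count filter. All 23 had a log2 difference above 0, 8 at an unadjusted p under 0.05 (34.8%) and none at the adjusted threshold. Without 5xFAD female 2 the 8 became 4, and without 5xFAD female 5 they became 12. The median was 0.24. No member separated the pairs in all 4 groups. Since plaques were not measured and no other core gene passed, the arms are called by Cst7 and not by plaque load.

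Among the receptors of the core, Trem2 was at 31.7, 53.4 and 63.8 CPM (lowest, median and highest) in low and 46.6, 69.6 and 85.8 in high libraries. The pairs separated in 3 of 4 groups and the arms overlapped in 5xFAD females. Its log2 difference was 0.36 (SE 0.09, adjusted p = 0.603). Clec7a, a beta-glucan receptor with high expression near plaques, had a difference of 0.44 (SE 0.14) and Axl, a receptor for dying cells, 0.20 (SE 0.08). Itgax, an integrin alpha chain, was at 5.58 to 13.3 CPM in low and 7.09 to 18.1 in high libraries, with a difference of 0.40 (SE 0.17). Tyrobp, the adaptor of Trem2, stood at 0.20 and did not separate the pairs in any group. Ch25h, which makes 25-hydroxycholesterol, had 0.53 (SE 0.19) and Cd63, a tetraspanin of late endosomes, 0.28 (SE 0.10).

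Of the other core members, Cd52 had 0.42 (SE 0.16), Cd68 0.32 (SE 0.13) and Cd84 0.30 (SE 0.15). Some others, such as Apoe, Spp1 and Lpl, had small or unsteady differences. Apoe, the main lipid carrier of brain, was at 969 to 2329 CPM in low and 1355 to 2240 in high libraries, a log2 difference of 0.26 (SE 0.16, adjusted p = 0.651), and the sign of its difference changed when only knock-in libraries were used. Spp1, osteopontin, had 0.36 (SE 0.31) and a negative difference when only the 5xFAD libraries were used. Lpl, lipoprotein lipase, had 0.09. The 23 tested members ranged from 0.00 to 0.53. In the Trem2 pathway list, with a median of 0.19, 8 of 10 genes had a difference above 0 and none passed the adjusted threshold. At an unadjusted p under 0.05 there were 2 (20%), of which Trem2 is also counted in the core. Vav1, a guanine nucleotide exchange factor downstream of Syk, had 0.31 (adjusted p = 0.603).

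Markers of microglia in general had differences of like size to the core. Of the 18 homeostatic microglia genes, all tested, 18 had a difference above 0, 8 at an unadjusted p under 0.05 (44.4%, or 5 genes without knock-in male 10) and none at the adjusted threshold, and the median was 0.19. Cx3cr1, the fractalkine receptor, was at 38.7 to 66.3 CPM in low and 47.1 to 92.8 in high libraries, a log2 difference of 0.37 (SE 0.09, adjusted p = 0.603). In 5xFAD males its 2 high libraries (47.1 and 48.0 CPM) overlapped the low ones (38.7 and 48.0). In knock-in males the high ones (69.5 and 78.1) were far above the low ones (44.1 and 44.5). The middle library held more Cx3cr1 than both high ones in 5xFAD males (68.4 CPM) and in knock-in males (90.1). Fcrls, a microglial Fc receptor-like scavenger, separated the pairs in all 4 groups, with a difference of 0.32 (SE 0.09, adjusted p = 0.603), and Siglech had 0.37. P2ry12, the purinergic receptor used to mark resting microglia, had 0.17 (SE 0.13, adjusted p = 0.699) and Tmem119 0.17 (adjusted p = 0.635).

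Pan-microglia and macrophage genes had a median of 0.25 over 15 tested, with 14 above 0 and 5 at an unadjusted p under 0.05 (33.3%). Over all genes 51.1% were above 0 and 4.43% were higher at that p. Unc93b1, which carries Toll-like receptors to endosomes, stood at 0.37. Fc gamma receptor genes, which bind antibody on phagocytes, had a median of 0.30, with 5 of 5 above 0 and 4 at an unadjusted p under 0.05 (80%). Fcer1g is counted both here and among the 5 pan-microglia genes. Fcgr4 showed 0.97 but at low levels of 1.09 ± 0.75 CPM in high and 0.54 ± 0.35 in low libraries. Complement genes had a median of 0.19 over 18 tested, with 16 above 0 and 5 at an unadjusted p under 0.05 (27.8%). Among the 5 were C1qb (0.32) and C1qc (0.30), chains of the first component that microglia make. Toll-like receptor genes had a median of 0.31 over 14 tested, with 12 above 0 and 7 at an unadjusted p under 0.05 (50%). Among the 7 were Tlr12 (0.72), Tlr13 (0.54) and Ly86, which is also counted with the pan-microglia genes. The median of the Toll-like list was below 0 in 5xFAD males (-0.05). With 1 library left out these counts ran from 3 to 8 for pan-microglia genes, 1 to 5 for Fc gamma receptors (1 without knock-in female 2), 1 to 5 for complement (1 without knock-in female 5) and 3 to 7 for Toll-like receptors (3 without knock-in female 1).

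Cathepsins, lysosomal proteases that include the targets of cystatins, had differences above 0 without exception among those tested. Of 13 cathepsin genes tested, 13 had a difference above 0, 7 at an unadjusted p under 0.05 (53.8%) and none at the adjusted threshold, with a median of 0.23. Ctsd, the main aspartic protease of lysosomes, was at 611, 852 and 1216 CPM (lowest, median and highest) in low and 833, 1069 and 1526 in high libraries, a log2 difference of 0.38 (SE 0.08, adjusted p = 0.462). The pairs separated in 3 of 4 groups, and in 5xFAD females 1 high library (833) lay between the low ones (785 and 875). Ctss and Ctsz, cysteine proteases of microglia, each had 0.36, and Ctsb 0.20. Lysosomal hydrolases and carriers had a median of 0.12 over 20 tested, with 8 at an unadjusted p under 0.05 (40%, or 5 without knock-in male 6), among them Grn, progranulin, at 0.37 and Npc2, a cholesterol carrier, at 0.30.

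The upstream window of Ctsd is shown because Ctsd was among the genes most like Cst7 across all libraries. It lies at chr7:142387828-142388077 on the minus strand (RefSeq, GRCm38.p6) and holds the E-box CACGTG, in capitals, at 245 and 98 bases before the gene start.
Ctsd: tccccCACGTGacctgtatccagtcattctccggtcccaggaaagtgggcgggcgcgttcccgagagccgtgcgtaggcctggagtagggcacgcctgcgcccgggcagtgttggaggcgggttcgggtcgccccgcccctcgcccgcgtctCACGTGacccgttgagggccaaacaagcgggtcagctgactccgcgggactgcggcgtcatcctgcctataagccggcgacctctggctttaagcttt
The E-box is a core of sites known to bind lysosomal regulators such as TFEB. It was found in 5 of the 10 cathepsin genes with a window (50%) and in 8.09% of all genes with one. Of the lysosomal hydrolase genes with a window, 3 of 16 held it (18.75%). AP-1 letters were in 6 of 17 core genes (35.3%) against 8.97%. Like AP-1 shares were found in chemokine (33.3%), interferon (31.25%) and MHC class II genes (28.6%). PU.1 letters were in 1 of 17 core genes (5.88%) against 3.69%.

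**Figure D3:**
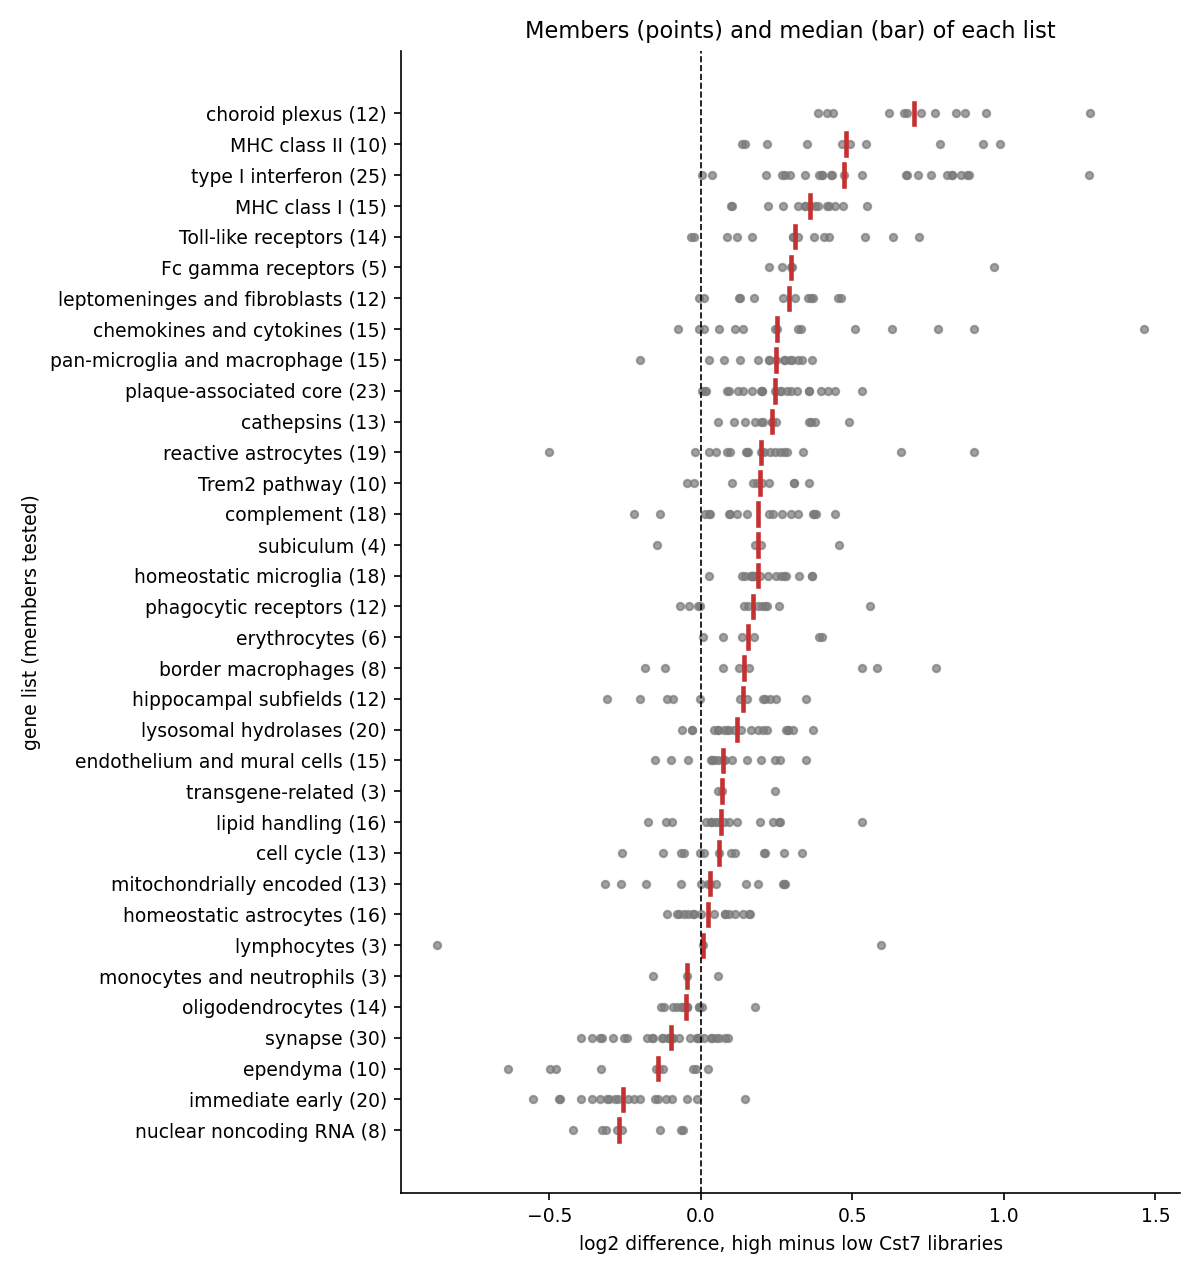
Log2 difference between high and low Cst7 libraries for the tested members of each list (points) and the median of each list (bar), ordered by median, with the number tested beside each name. Choroid plexus (0.70), MHC class II (0.48), type I interferon (0.47) and MHC class I (0.36) had the highest medians, and nuclear noncoding RNA (-0.27) and immediate early genes (-0.26) the lowest.

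In the other direction no gene passed edgeR's threshold, and the 5 named genes of lowest p were Pitpnm3, Nwd2, Gpr26, Trhde and Csmd1. 15 genes had both high libraries below both low ones in all 4 groups (0.0833%). Pitpnm3, a phosphatidylinositol transfer protein family member, was at 49.0 to 78.6 CPM in low and 36.4 to 56.8 in high libraries. Its log2 difference was -0.44 (SE 0.08, edgeR adjusted p = 0.166), and DESeq2 called it. Nwd2, a NACHT and WD repeat protein of neurons, also separated the pairs in all 4 groups, with -0.42 (SE 0.09, adjusted p = 0.462). Gpr26, an orphan receptor of brain, had -0.50 (SE 0.11, adjusted p = 0.462), and its pairs overlapped in 5xFAD males (133 and 190 low, 130 and 161 high). Trhde, an enzyme that inactivates thyrotropin-releasing hormone, had -0.56, and Csmd1, a complement regulator on neurons, -0.39.

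Synapse genes had a median of -0.10 over 30 tested, with 7 above 0 and 6 lower at an unadjusted p under 0.05 (20%, against 3.69% of all genes, or 3 without 5xFAD female 4), and none at the adjusted threshold. Pclo and Bsn, giant scaffolds of the presynaptic active zone, had -0.36 (SE 0.10) and -0.40 (SE 0.17), and Shank2, a postsynaptic scaffold, -0.25 (SE 0.09). Unc13a, which primes vesicles, had -0.29. Immediate early genes, switched on by neuronal activity, had a median of -0.26 over 20 tested, with 1 above 0 and 3 lower at an unadjusted p under 0.05 (15%, or 1 to 5 genes with 1 library left out). Fos, the classic marker of recent firing, was at 38.8 ± 10.2 CPM in low and 28.2 ± 8.89 in high libraries (SD, n = 8 each), with a log2 difference of -0.46 (SE 0.21, adjusted p = 0.608). Fosb had -0.55 (SE 0.19).

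No astrocyte gene passed the threshold. Reactive astrocyte genes had a median of 0.20 over 19 tested, with 17 above 0 and 3 at an unadjusted p under 0.05 (15.8%). The 3 fell to 1 without knock-in female 5 or 5xFAD female 4. Cxcl10, among the 3, is also in the chemokine list. Homeostatic astrocyte genes had a median of 0.02 over 16. Gfap, a filament protein that astrocytes make more of when reactive, ran at 606 to 1470 CPM in low and 850 to 1550 in high libraries, a log2 difference of 0.29 (SE 0.10, adjusted p = 0.603). Clu, clusterin, whose symbol the knock-in allele carries, had 0.24 (SE 0.09, adjusted p = 0.603). C4b, a complement gene of astrocytes, had 0.15. Oligodendrocyte genes had a median of -0.05 over 14 tested. Thy1, whose promoter drives the transgenes, was at 1892 ± 251 CPM in low and 2240 ± 279 in high libraries (SD, n = 8 each), a log2 difference of 0.25 (SE 0.08, adjusted p = 0.603). The transgenes were not measured here, and the part of Thy1 in the results was not tested.

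Pooled over the 4 groups, markers of other sources of RNA overlapped between the arms. Ifit3 did so too (low up to 18.7 CPM, high from 14.3), so such overlap does not show that these sources were balanced. All 12 choroid plexus genes had a difference above 0 with a median of 0.70, but none reached an unadjusted p of 0.05. Without knock-in male 10 the median was 1.28 and 7 genes did so, and without 5xFAD male 10 the median was 0.31. The largest, Ttr, ran from 37.4 to 4150 CPM in low and from 645 to 10666 in high libraries, and its arms overlapped widely. All 8 nuclear noncoding RNAs had a difference below 0, with a median of -0.27 and none at an unadjusted p under 0.05. Malat1 was at 186 to 843 CPM in low and 164 to 741 in high libraries. Leptomeningeal genes had a median of 0.29 over 12 tested, with 11 above 0. Their median was 0.05 in 5xFAD females, -0.22 in 5xFAD males, 0.49 in knock-in females and 0.74 in knock-in males. Border macrophage genes had a median of 0.14 over 8, with 6 above 0. In both lists 0 genes reached an unadjusted p under 0.05. In a fit with choroid plexus level as a covariate 1 gene was called, Ifit3, and with nuclear noncoding RNA level 0 genes were called, with 1306 at an unadjusted p under 0.05. The part of these RNAs in the other results was not tested.

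Within each of the 4 groups the interferon list had a median above 0. Its median difference was 0.52 in 5xFAD females, 0.27 in 5xFAD males, 0.74 in knock-in females and 0.44 in knock-in males. The plaque-associated core was at 0.17, 0.20, 0.26 and 0.39 in that order, and the homeostatic microglia genes at 0.07, 0.13, 0.27 and 0.44. Toll-like receptor genes were at 0.19, -0.05, 0.39 and 0.67, and cathepsins at 0.07, 0.09, 0.32 and 0.32. The Cst7 split itself was wider in knock-in groups, as its ratios show, so these values are not at a common Cst7 step. Immediate early genes were at -0.47, -0.25, 0.02 and -0.28, and nuclear noncoding RNA at -0.06, -0.90, 0.09 and -0.58.

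**Figure D4:**
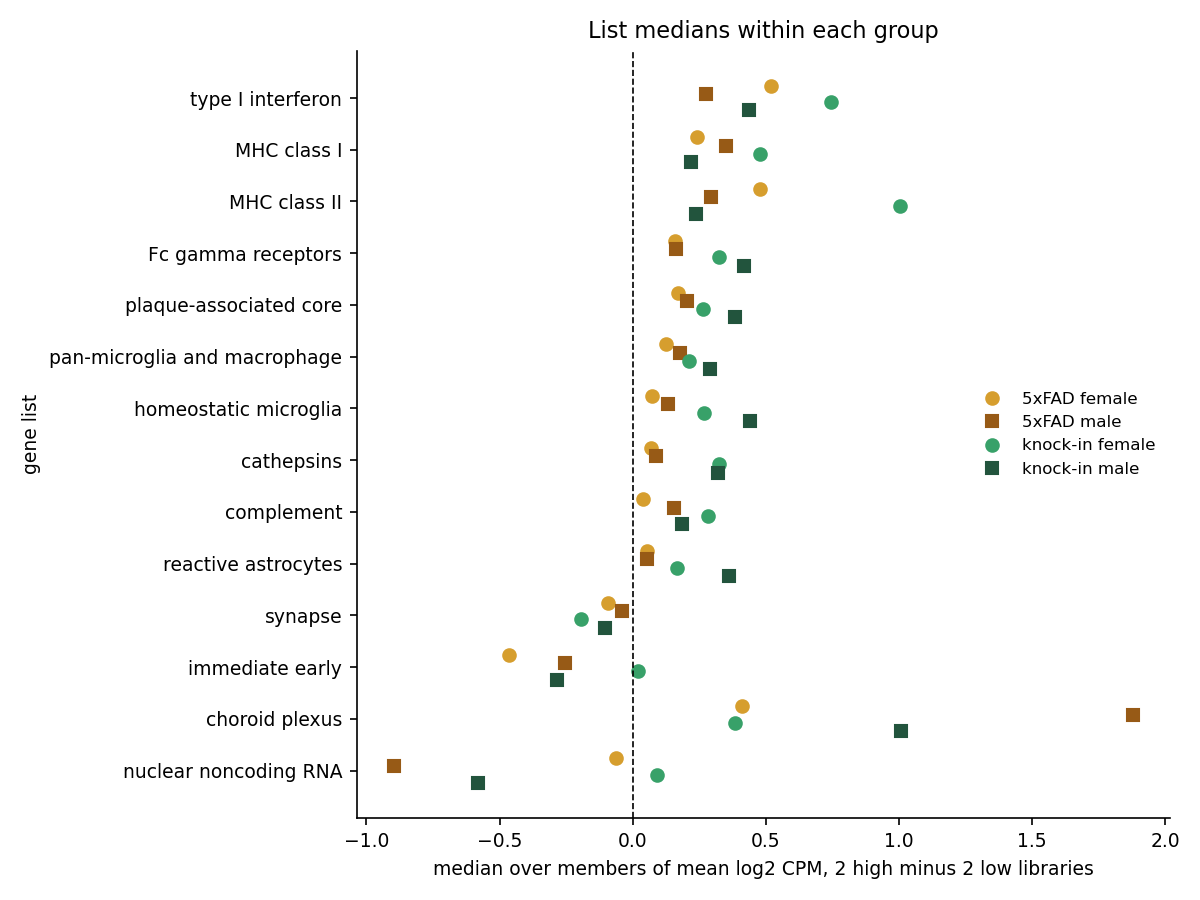
Median over the tested members of each list of the difference in mean log2 CPM between the 2 high and 2 low libraries (horizontal axis), in each of the 4 groups. Type I interferon, MHC class I and II, Fc gamma, core and microglial lists lie right of 0 in all 4 groups, whereas immediate early genes (0.02) and nuclear noncoding RNA (0.09) cross 0 in knock-in females.

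A test of whether the high-low difference itself differed between genotypes found no gene (0%) by edgeR, with 1697 at an unadjusted p under 0.05 (9.43%), 0 by limma-voom and 29 by DESeq2. The 1697 became 1023 without 5xFAD male 10 and 1123 without knock-in female 1, and were at most 2379. The lowest p was that of Zfp831, a zinc finger gene, with a knock-in minus 5xFAD difference of -0.89 (SE 0.15, adjusted p = 0.251). Kcna3, a potassium channel, followed with -2.82 (SE 0.50, adjusted p = 0.282). Cx3cr1 had 0.51 (adjusted p = 0.475). Between sexes edgeR called 0 genes (0%), with 499 at an unadjusted p under 0.05 (2.77%), and limma-voom and DESeq2 called 0 each. The lowest p was that of Trpc6, a cation channel, with a female minus male difference of 0.82. The type I interferon list had no member at an unadjusted p under 0.05 in either test.

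To ask which genes went with Cst7 at a given amount of homeostatic microglial RNA, the mean log2 CPM of that list was added to the fit, and its own members were given no value. No gene passed (0%) by edgeR, with 1148 at an unadjusted p under 0.05 (6.38%), 0 by limma-voom and 2 by DESeq2. The 1148 fell to 558 without knock-in female 2 (3.05%) and to 760 without 5xFAD male 9. The covariate list includes Fcrls and Olfml3, which followed Cst7 closely over all 19 libraries (Pearson r = 0.94 and 0.84). The covariate is therefore partly a second readout of the ranking. A smaller median of a list of microglial genes in this fit cannot be read as a result about that list. The medians of the lists parted. The core went from 0.24 to 0.06, Toll-like receptors from 0.31 to -0.01 and complement from 0.19 to -0.00. Cathepsins went from 0.23 to 0.13, Fc gamma receptors from 0.30 to 0.13 and lysosomal hydrolases from 0.12 to 0.11. Synapse genes went from -0.10 to -0.14 and immediate early genes from -0.26 to -0.34. The interferon list went from 0.47 to 0.44, with 8 of 25 at an unadjusted p under 0.05, MHC class I from 0.36 to 0.35 with 7 of 15, and MHC class II from 0.48 to 0.53 with 3 of 10. Without knock-in female 2 those counts were 5, 3 and 0, and the 3 MHC class II genes were also 0 without 5xFAD female 2. With 1 library left out the interferon median in this fit ran from 0.25 (without 5xFAD female 3) to 0.51, that of class II from 0.23 (without 5xFAD female 2) to 0.76 and that of the core from -0.04 to 0.13. Ifit3 had 0.64 and Lgals3bp 0.52 in this fit, each with adjusted p = 0.765, against 0.20 for Trem2 and 0.11 for Clec7a.

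**Figure D5:**
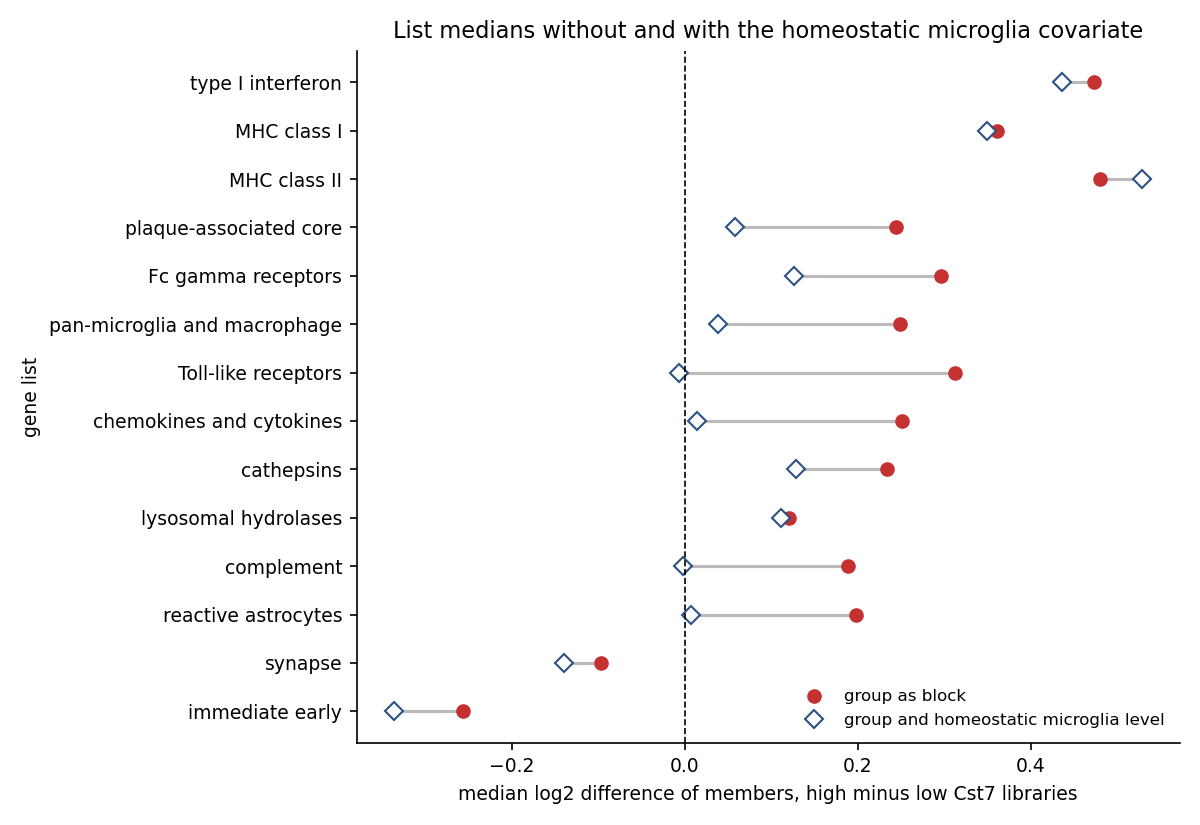
Median log2 difference of each list (horizontal axis) with group as a block (filled circles) and with the homeostatic microglia level added (open diamonds). That level includes Fcrls and Olfml3, which followed Cst7 closely, so it is partly a second readout of the ranking. Interferon and MHC lists stay near their first value, at 0.44, 0.35 and 0.53, and so do lysosomal hydrolases (0.11). The core (0.06), chemokines (0.01), complement and reactive astrocytes (0.01) lie close to 0. Cathepsins and Fc gamma receptors (0.13 each) lie in between, and synapse (-0.14) and immediate early genes (-0.34) lie further below 0 than before.

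Over all 19 libraries, with group means removed, the genes whose log2 level followed Cst7 most closely were Fcrls (Pearson r = 0.94), Ctsd (0.92), Ctsa (0.86), Baiap2l2 (0.85), Olfml3 (0.84), Actr3 (0.84), Lag3 (0.84) and Ctsb (0.83). These r are a description over libraries that share groups and a common scaling. Of the 8, 3 were cathepsins and 2 were homeostatic microglia genes, Fcrls and Olfml3. Those lists held 13 and 18 of the 18002 genes tested. The 8 were ranked in a smaller pool, with mean log2 CPM of at least 1 and no predicted genes, pseudogenes or genes without a symbol. With log2 Cst7 as a continuous term over all 19 libraries, edgeR called 3 genes (0.0165% of 18211): Ctsd (0.61 per log2 step of Cst7, adjusted p = 0.0112), Fcrls (0.59, 0.0112) and Lag3, an immune checkpoint receptor (0.80, 0.0494). Ifit3 had 0.97 (adjusted p = 0.1002) and Lgals3bp 0.70 (adjusted p = 0.151) there.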

How the data were processed

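Bulk RNA-seq libraries of 19 hippocampi were analysed. The tools named in the submitters' processing notes are FastQC, Salmon, DESeq2 and Seurat, with build mm39; versions, strandedness and how Salmon output was summed to genes are not given in the sources used here. The authors deposited a gene table of estimated counts, already whole numbers, which were used for the tests. Their deposited normalized counts (unit: signal, counts over factors that differ between genes and libraries) served for 1 alternative, and their deposited variance-stabilized log2 values were not used for any result.

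Of 20655 gene IDs, 20023 matched a symbol. Cst7 was removed before the fits. The main test was edgeR 4.0.16 (TMM, filterByExpr by group with a minimum count of 10, robust quasi-likelihood F-test; SE from the log2 difference and F) in R 4.3.3 over 16 libraries with group as a block, leaving 18002 genes. Interaction terms gave the genotype and sex differences. Alternatives used DESeq2 1.42.0, limma 3.58.1, other scalings, filters, covariates and subsets of libraries. The scripts were tested on simulated counts with known changes.

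Genes named in the text are the plaque-associated core, genes past the threshold (filled to the 5 of lowest p per direction, mean log2 CPM of at least 1, no predicted genes), up to 4 members of lowest p of each other list, 7 glial markers, the 5 lowest p of each interaction and the 8 genes most like Cst7. Others are named as examples of a list after their values were seen, such as Irf7, Isg15, Bst2, Usp18, H2-D1 and H2-K1. Some genes chosen by this rule are not reported here. The members of the arms and the lists were chosen with earlier results of these data known. Some genes, such as Trem2, Fcer1g, Ly86, Cxcl10 and Homer1, sit in more than 1 list, so the list counts are not independent. Each p-value sets a difference against the spread between libraries that its fit leaves, with 1 library per mouse by title. Whether mice share litters is not given.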

Additional observations from a re-analysis of the deposited data

Results flagged for a closer look

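Of 68 group-wise checks on 17 genes with values given by library, 3 found a library whose gap to the next one was large for a group of 5, and chance alone flags about 1 in 20 such groups. Trhde was at 51.6 CPM in knock-in male 6, a low Cst7 library, against 20.1 to 29.1 in the other 4 of its group. Itgax was at 17.8 CPM in knock-in male 9, the library with the most Cst7 of its group, against 9.41 to 11.2 in the others. Gfap was at 1093 CPM in 5xFAD female 2, also the highest in Cst7 of its group, against 832 to 854 in the others. No explanation was tested.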

How the results depend on the processing

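The count of genes called between high and low Cst7 libraries was 2 and stayed at 2 with limma-voom, DESeq2 size factors and no low-count filter. Ranking on TMM-scaled Cst7 moved 0 libraries to another arm and so gave the same fit. It was 14 with DESeq2, 1 with the choroid plexus covariate, 3 with Cst7 as a continuous term and 3 in knock-in libraries alone. It was 0 with library size only, with a filter of 1 CPM in 4 libraries, with limma on the deposited normalized values (log2 after adding 1), in 5xFAD libraries, females or males alone, with the noncoding RNA or homeostatic microglia covariate and without the group block. Leaving out 1 library gave 0 to 1. Genes of the lists among those called numbered 1, with 6 under DESeq2, 2 under continuous Cst7, 0 under the settings that called 0 genes, and 0 to 1 with 1 library left out. The genotype difference gave 29 genes with DESeq2 and 0 otherwise, including each library left out (0 to 0), and the sex difference gave 0 in all 20 alternatives. The fit with the homeostatic covariate gave 2 genes with DESeq2, a tool added after seeing the data, and 0 otherwise. The cause of these changes was not tested.

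Signs reversed for Cd68 (-0.0577), Lpl (-0.0723), Cd9 (-0.0213) and C4b (-0.0313) with the homeostatic covariate. In knock-in libraries alone Apoe was at -0.00461. In 5xFAD libraries alone Spp1 was at -0.28, P2ry12 at -0.0017 and Bsn at 0.0133, in males alone Spp1 at -0.17, and on deposited normalized values P2ry12 at -0.00668. The interferon median went from 0.47 to 0.219 with the replicate block. No scaling moved the median of all genes by 0.1.

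Replicate numbers are shared between genotypes. The correlation of same-numbered libraries' deviations ran from -0.21 to 0.12 over 9 pairs, 2 above 0.1 and 1 best with its own number. The labels do not say what the numbers stand for, and whether same-numbered libraries share anything else was not tested. A replicate block with genotype called 2 genes, Folr1 and Gm14288, neither of them Ifit3 or Lgals3bp, and C4b was at -0.10. In that fit only replicates 2, 4, 7 and 10 set a high library against a low one. At low levels, such as 1 CPM (about 20 counts), single genes such as Fcgr4 and Ccl12 are imprecise.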

Other observations

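In the test between genotypes, 9 of 13 mitochondrially encoded genes had an unadjusted p under 0.05 (against 9.43% of all genes). The median knock-in minus 5xFAD difference was 0.62, and none passed the adjusted threshold. These genes can rise and fall together within a library, so the 9 need not be independent. Their median high-low difference was -0.04 in 5xFAD females, -0.57 in 5xFAD males, 0.20 in knock-in females and 0.51 in knock-in males. 5xFAD male 9 had the lowest mean log2 CPM of these genes (10.60, against 11.38 in the other high male), and without it the difference in 5xFAD males was -0.18. Without knock-in female 1 that in knock-in females was -0.12, and in 5xFAD females it ran from -0.25 to 0.18 with 1 library left out. The 9 genes became 5 without any 1 of knock-in female 1, knock-in males 7 and 10 and 5xFAD females 2 and 3. For mt-Nd3, a subunit of respiratory complex I, the difference between genotypes was 0.71 (adjusted p = 0.475). Synapse genes had 7 of 30 at an unadjusted p under 0.05 in that test, with a median of -0.15, or 3 genes without 5xFAD male 10; Bsn had -0.83 (adjusted p = 0.475). Hba-a2, a globin with near-identical copies, had 1.19 (adjusted p = 0.475).

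Among endothelial and mural genes, 12 of 15 tested had a high-low difference above 0 with a median of 0.07. Kcnj8, a pericyte potassium channel, had 0.35 (adjusted p = 0.604) and Cldn5, a tight junction protein of brain endothelium, 0.24 (adjusted p = 0.608). Cell cycle genes had a median of 0.06 over 13 tested, with Pcna, the replication clamp, at 0.21 and the helicase subunit Mcm6 at 0.33.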
